A study of Danio rerio with 121 samples.

Results

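The step from 32 to 48 hours postfertilization (hpf) was examined in 16 libraries from whole zebrafish embryos, 8 of 32 hpf and 8 of 48 hpf, out of 121 libraries of the time course. They were chosen by their sample titles and belong to the DrRyu set, which holds 40 libraries of 5 stages (20-somite stage and 24, 32, 48 and 72 hpf). All embryos of both groups were RIKEN wild type (RW), kept in water at 28 °C under a light cycle of 14 h light and 10 h dark, with no treatment or transgene named. The stage was the only labelled difference between the groups, and no sex, clutch or sequencing run was given. RNA was read by Lasy-Seq, which reads the 3′ end of polyadenylated transcripts from many indexed samples at once. The labels name a single embryo per sample, whereas the study's methods describe pooled embryos, so it is not known how many embryos a library stands for. Nothing in the labels states whether the libraries of a stage came from separate clutches, so the p-values measure the spread between these libraries.

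In zebrafish, this interval closes the pharyngula period and leads into hatching. Lens fiber cells fill with crystallins, retinal neurons leave the cell cycle, fast muscle matures, cranial neural crest condenses into cartilage, and the larval fin fold is built from actinotrichia. The study followed whole embryos over these stages because cells that contribute to the palate are widely spread, and it set the jaw and palate genes at the center. Whole-embryo RNA mixes all tissues, so a level here is the share of a transcript in the RNA of the embryo.

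The 32 hpf libraries held 5004570 to 16631101 estimated counts with a median of 8281284, and the 48 hpf libraries held 2207039 to 6456442 with a median of 3931182 (exact permutation test, two-sided, p = 0.00155, n = 8 and 8). At least 1 count was found for 15686 to 18638 genes at 32 hpf and for 14143 to 16276 at 48 hpf (exact permutation test, two-sided, p = 0.00342). Depth thus moved with stage, and low genes were measured less precisely at 48 hpf. On the first principal component of log2 levels (31.5% of the variance) all 8 libraries of 32 hpf lay on the other side from all 8 of 48 hpf. The second component (9.87%) set 48 hpf libraries 5 and 6, which were the shallowest, apart from the other 6. No pair of libraries was alike within sampling noise. Libraries 2 and 4 of 48 hpf stood apart in blood and in muscle genes, respectively, and are named beside the results they touch.

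Between the stages, 846 genes rose (5.28% of 16034 tested) and 1011 fell (6.31%) at an adjusted p under 0.05, while the median of all genes stayed at a log2 fold change of -0.01. A change of at least 2-fold was seen for 522 genes upward (3.26%) and 405 downward (2.53%). The 8 libraries of 48 hpf all lay above the 8 of 32 hpf for 263 genes (1.64%) and all below for 280 (1.75%). Throughout, a level is in CPM, the count scaled by library size and TMM factor, and is given as the median of 8 libraries with the lowest and highest in parentheses, and fold changes are log2 values of 48 over 32 hpf ± SE from the quasi-likelihood test of edgeR with Benjamini-Hochberg adjustment. Among the gene lists, the shares of members that rose were 69.2% for the mitochondrial genome, 56.9% for lens, 50.8% for neuronal genes, 50.0% for globins and 44.4% for the endocrine pancreas. The shares that fell were 62.9% for DNA replication, 56.1% for ribosomal proteins and 48.5% for ribosome biogenesis. Counts of called members moved in many lists when a library was left out. Falls ran from 36 to 45 for DNA replication, from 39 to 50 for ribosome biogenesis and from 0 to 2 for myogenic regulators. Single libraries are named only where the shift was large beside the count. The share of members called in each of 45 lists is plotted beside the shares of all genes.

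**Figure D1:**
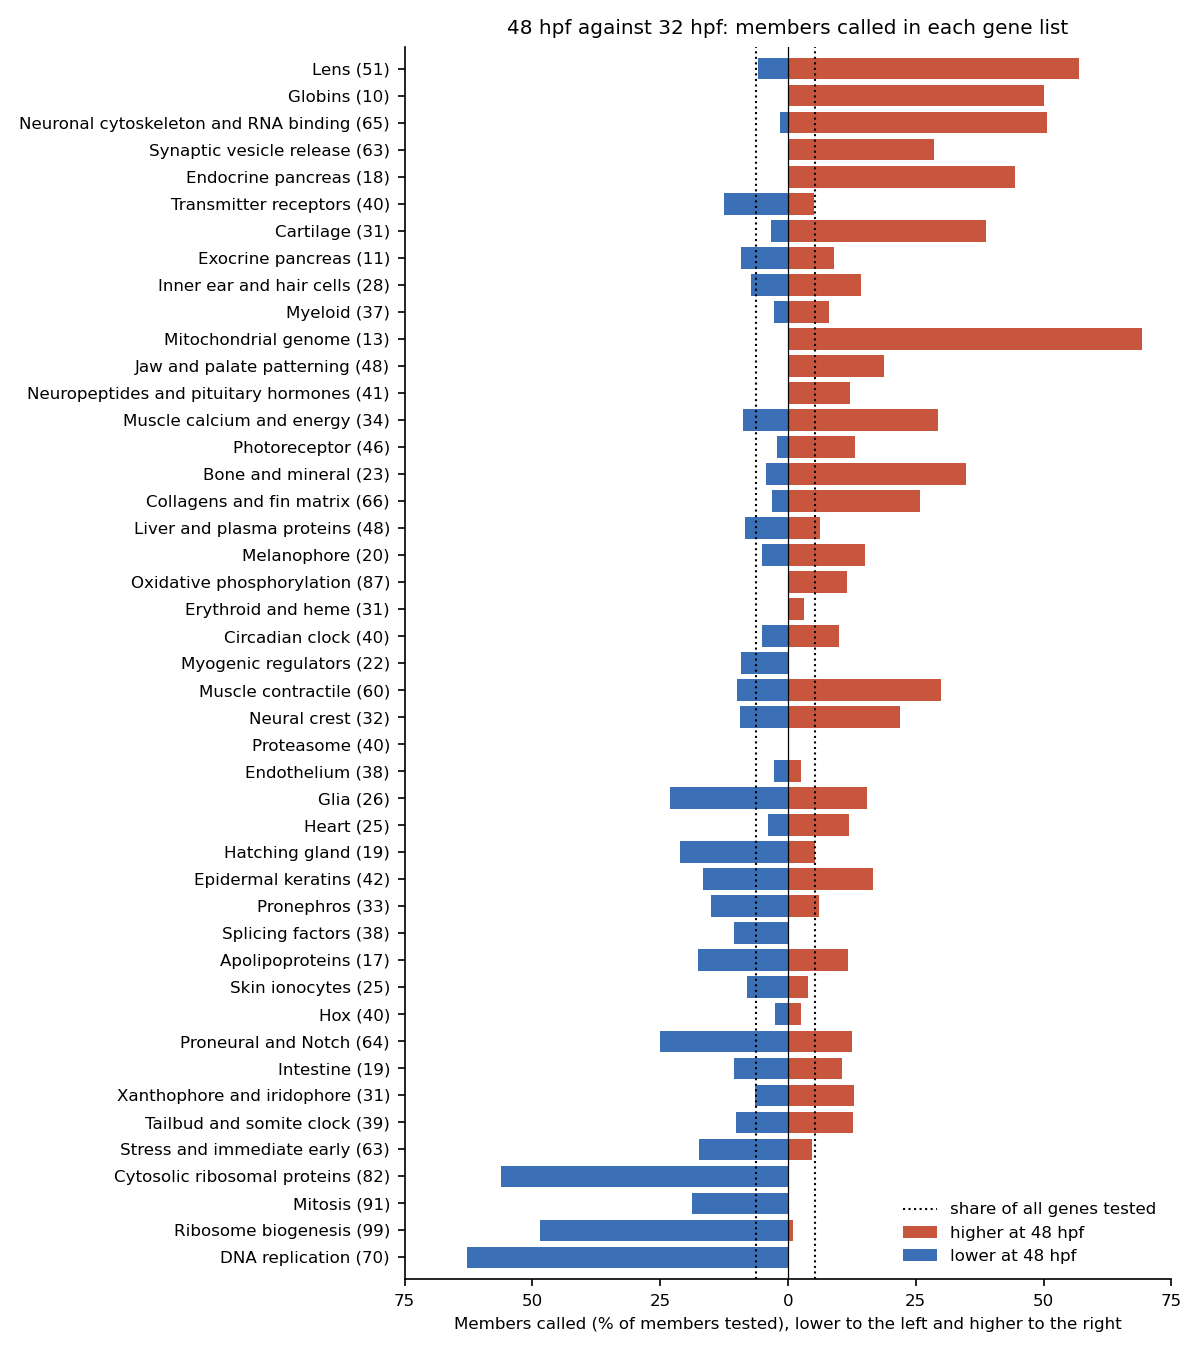
Share of the tested members of each of 45 gene lists (number tested in parentheses) that rose (red, to the right) or fell (blue, to the left) from 32 to 48 hpf at an adjusted p under 0.05, in percent of members tested and ordered by the median log2 fold change. The dotted lines mark the shares among all 16034 genes, 5.28% higher and 6.31% lower; DNA replication has 0 of 70 members higher and 44 lower.

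The lens gave the largest rises. Of the lens list, 29 of 51 tested members rose (56.9%) and 3 fell (5.88%), against 5.28% and 6.31% of all genes (median log2 fold change 1.93). In 23 of the risen members the stages did not overlap, while 1.64% of all genes lay without overlap above. All 20 genes of the *crygm2d* family that were tested, which encode gamma M crystallins of the fish lens fiber, rose. The largest rise of all eligible genes was that of *crygm2d16*, with 3.67 CPM (0 to 5.80) at 32 hpf and 104 CPM (71.9 to 136) at 48 hpf (log2 fold change 5.10 ± 0.37, adjusted p = 2.21e-11). Its relative *crygm2d15* went from 4.37 CPM (0 to 18.1) to 132 CPM (59.9 to 226) (log2 fold change 4.42 ± 0.44, adjusted p = 1.28e-08). For *crygm2d9* the levels were 35.6 CPM (14.7 to 84.8) at 32 hpf and 472 CPM (322 to 594) at 48 hpf (log2 fold change 3.53 ± 0.25, adjusted p = 1.59e-11), and *crygm2d2*, *crygm2d14*, *crygm2d18* and *crygm2d20* had log2 fold changes of 3.99 ± 0.37, 3.67 ± 0.26, 3.27 ± 0.22 and 3.31 ± 0.20. In each of these genes every library of 48 hpf lay above every library of 32 hpf. These copies are nearly identical in sequence and the authors' counting splits shared reads between them, so the value of a single copy is less certain than that of the family. In RNA of whole embryos, more lens fiber cells and more crystallin RNA in each cell cannot be told apart.

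The 3 lens genes that fell included a pair of beta crystallins. *crybb1*, which encodes beta B1 crystallin, had 246 CPM (114 to 334) at 32 hpf and 9.25 CPM (1.503 to 54.9) at 48 hpf (log2 fold change -3.63 ± 0.42, adjusted p = 1.79e-07). Its paralog *crybb1l1* had 210.1 CPM (148 to 240.02) at 32 hpf and 29.2 CPM (13.8 to 63.9) at 48 hpf (log2 fold change -2.56 ± 0.22, adjusted p = 8.22e-10), and neither overlapped between the stages. A further paralog, *crybb1l2*, stood at 48.9 CPM (20.3 to 73.6) and 49.8 CPM (24.6 to 135) (adjusted p = 0.605). The third member that fell, *mipa*, encodes the water channel of the lens fiber (log2 fold change -1.21 ± 0.28, adjusted p = 0.00368). Over 4 stages *crybb1* averaged 55.4, 232, 19.2 and 73.0 CPM at 24, 32, 48 and 72 hpf, so it was highest at 32 hpf, and its single libraries at 72 hpf ranged from 0.17 to 574 CPM. If the *crybb1* copies share reads, their single values are less certain too, which was not examined. With the replicate number as a block 5 lens members fell. In 48 hpf library 4 the summed lens level was 6676 CPM, the lowest of its stage, and without that library 31 members rose and 3 fell.

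Some photoreceptor genes of the retina and pineal organ rose. Of the photoreceptor list, 6 of 46 tested members rose and 1 fell (median log2 fold change 0.35), against 5.28% and 6.31% of all genes, and DESeq2 called 13 higher. The gene *otx5*, a homeobox gene of photoreceptors and pineal cells, went from 0.181 CPM (0 to 3.84) to 22.4 CPM (8.01 to 36.7) (log2 fold change 4.87 ± 0.63, adjusted p = 1.56e-06). *crx*, the cone-rod homeobox gene, had 3.66 CPM (2.12 to 7.13) at 32 hpf and 37.7 CPM (19.0 to 62.7) at 48 hpf (log2 fold change 3.27 ± 0.29, adjusted p = 7.37e-10). *pde6gb*, an inhibitory subunit of the photoreceptor phosphodiesterase, went from 5.86 CPM (2.71 to 13.8) to 68.4 CPM (33.6 to 84.9) (log2 fold change 3.15 ± 0.27, adjusted p = 6.03e-10). No library of 48 hpf fell within the range of 32 hpf for these 3 genes. The others that rose were *rho*, the rod opsin, *sagb*, a rod arrestin, and *gngt2a*, a cone transducin subunit, all below 10 CPM in the median at 48 hpf. Opposite to them, *rbp4l*, which encodes a retinol-binding protein, had 119.96 CPM (70.9 to 162) at 32 hpf and 59.3 CPM (34.9 to 75.4) at 48 hpf (log2 fold change -1.01 ± 0.17, adjusted p = 0.0001). *vsx1*, a homeobox gene of retinal bipolar cells, rose 11.9-fold, with 3.53 CPM (1.74 to 11.2) at 32 hpf and 55.2 CPM (38.1 to 88.8) at 48 hpf (adjusted p = 7.28e-10). *crabp1a*, which encodes a cellular retinoic acid-binding protein, had 2.69 CPM (1.51 to 3.74) at 32 hpf and 43.1 CPM (31.7 to 64.9) at 48 hpf (log2 fold change 4.11 ± 0.26, adjusted p = 1.65e-12), again without overlap.

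**Figure D2:**
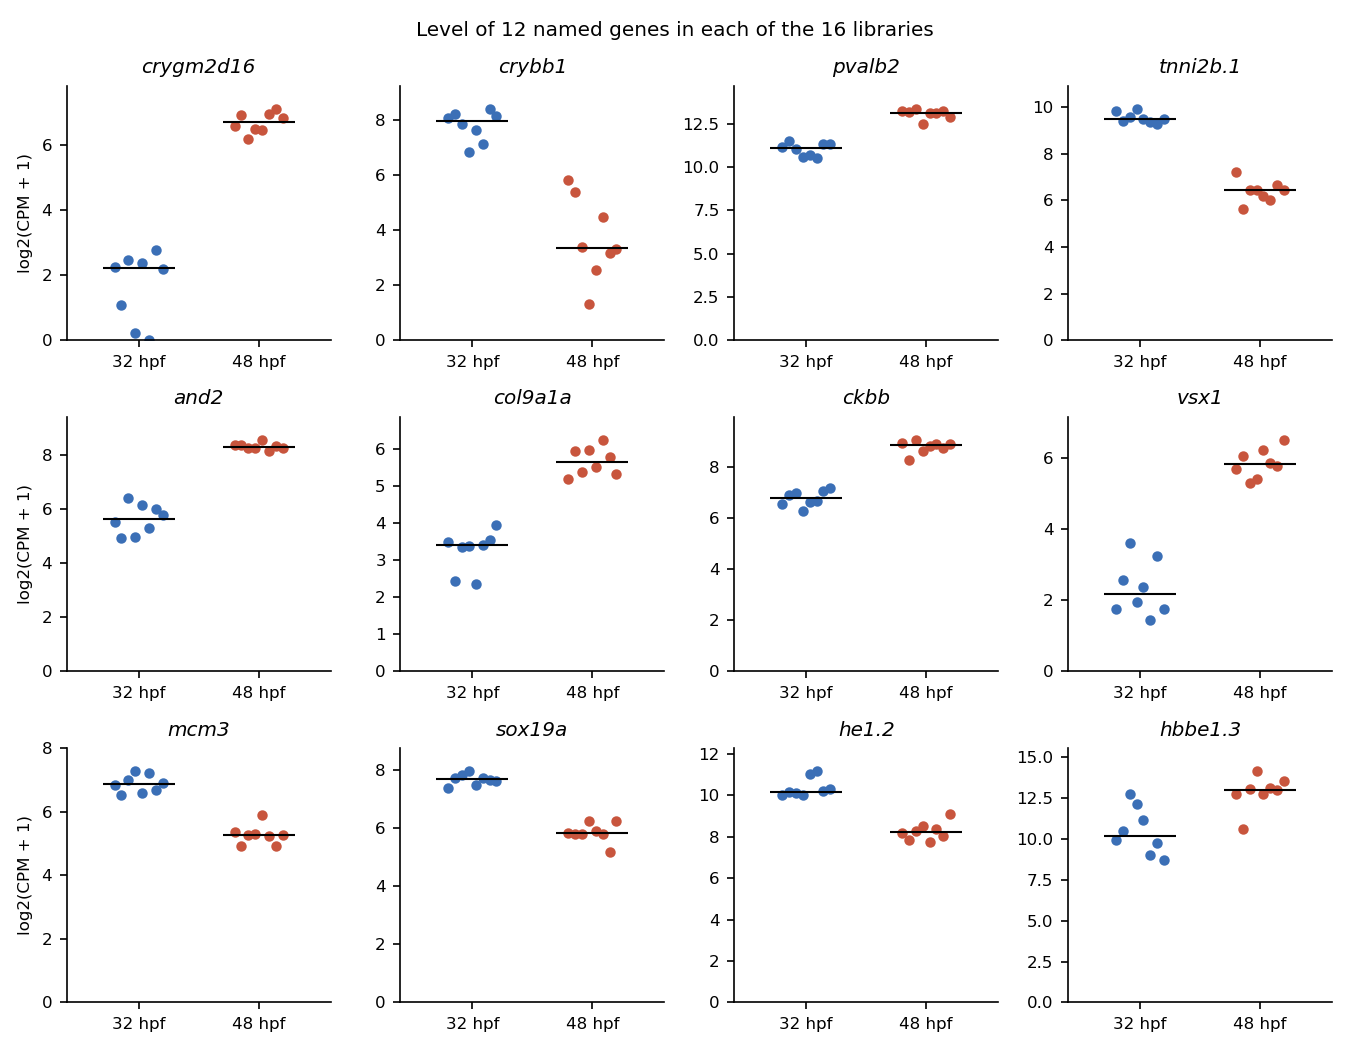
Level of 12 named genes, as log2(CPM + 1), in each of the 8 libraries of 32 hpf (blue points) and the 8 of 48 hpf (red points), with the median of each stage as a black line. Except for hbbe1.3, in which 48 hpf library 2 lies within the range of 32 hpf, the points of the stages do not overlap.

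In skeletal muscle, genes of the contractile apparatus changed in both directions. Of the contractile list, 18 of 60 tested members rose and 6 fell (median log2 fold change 0.09). The shares were 30% and 10%, against 5.28% and 6.31% of all genes. Fast fiber genes had the smallest adjusted p among the rises. *tnni2a.4*, a fast troponin I, had 1206 CPM (922 to 1411) at 32 hpf and 3121 CPM (1920.3 to 3683) at 48 hpf (log2 fold change 1.37 ± 0.13, adjusted p = 1.78e-09). *tnnt3b*, a fast troponin T, went from 383 CPM (238 to 569.7) to 1621 CPM (663 to 1965) (log2 fold change 2.03 ± 0.19, adjusted p = 1.85e-09). Among the falls, *tnni2b.1*, another fast troponin I, was the clearest, with 717 CPM (629 to 964) at 32 hpf and 86.1 CPM (48.1 to 149.9) at 48 hpf (log2 fold change -3.12 ± 0.17, adjusted p = 1.02e-13). Its neighbor in name, *tnni2b.2*, did the reverse, with 6.82 CPM (0.85 to 12.8) at 32 hpf and 60.2 CPM (39.1 to 96.7) at 48 hpf (log2 fold change 3.15 ± 0.31, adjusted p = 1.19e-08). *tnnt2c*, a troponin T gene, went from 299.96 CPM (207 to 452) to 43.8 CPM (26.7 to 67.7) (log2 fold change -2.82 ± 0.20, adjusted p = 9.96e-12). The intermediate filament gene *desma*, the slow myosin heavy chain *smyhc1* and the fast myosin heavy chain *myhz1.3* also fell, with log2 fold changes of -1.66 ± 0.15, -1.07 ± 0.15 and -1.13 ± 0.18. None of these genes overlapped between the stages.

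The genes that buffer calcium and supply energy in muscle rose more often than they fell. Of that list, 10 of 34 tested members rose and 3 fell (median log2 fold change 0.35). The shares were 29.4% and 8.82%, against 5.28% and 6.31% of all genes. The parvalbumins, calcium-binding proteins that speed up relaxation of fast fibers, were the clearest. *pvalb2* had 2188 CPM (1491 to 2896) at 32 hpf and 8977 CPM (5634 to 10338) at 48 hpf (log2 fold change 2.02 ± 0.14, adjusted p = 9.81e-12), and *pvalb1* had 1015 CPM (517 to 1451) at 32 hpf and 4544 CPM (3199.7 to 6318) at 48 hpf (log2 fold change 2.22 ± 0.18, adjusted p = 2.36e-10). Their libraries did not overlap. On the other side, *pygma*, the muscle glycogen phosphorylase, went from 51.6 CPM (37.7 to 64.5) to 24.2 CPM (13.2 to 40.4) (log2 fold change -1.11 ± 0.20, adjusted p = 0.000276), and *srl*, which encodes the calcium-binding sarcalumenin, from 111 CPM (89.8 to 142) to 68.3 CPM (44.7 to 98.2) (log2 fold change -0.73 ± 0.17, adjusted p = 0.00318), both with overlap. In 48 hpf library 4, the summed contractile level was 21113 CPM, whereas the other 7 libraries of that stage held 33633 to 44681. Its share of the 10 highest genes, 12.4%, was also the highest of its stage. Without that library, 19 contractile members rose and 6 fell, and for calcium and energy (0 falls with all 40 libraries) the counts were 12 and 2.

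Among regulators that specify muscle, 0% of the tested members rose and 9.09% fell, against 5.28% and 6.31% of all genes. Of 22 tested myogenic regulators 0 rose (1 at an unadjusted p under 0.05, 0 by DESeq2) and 2 fell. The falls were those of *mef2ca*, a myocyte enhancer factor (log2 fold change -0.63 ± 0.20, adjusted p = 0.0415), and *pax3a*, a gene of muscle and neural crest progenitors (log2 fold change -0.75 ± 0.25, adjusted p = 0.0473). These calls were lost with 11 of the 16 libraries left out singly (adjusted p 0.0519 to 0.108) and 13 of the 16 libraries left out singly (adjusted p 0.0516 to 0.117), respectively. Subunits of the muscle acetylcholine receptor, which lies at the synapse between motor nerve and fiber, fell. The calls of *chrnb1* and *chrna1* were lost over the 8 libraries nearest in depth, and that of *chrna1* also with all 40 libraries. *chrnb1* had 19.0 CPM (8.14 to 22.2) at 32 hpf and 8.44 CPM (2.76 to 10.7) at 48 hpf (log2 fold change -1.23 ± 0.31, adjusted p = 0.00656), and *chrna1* had 42.3 CPM (22.7 to 59.9) at 32 hpf and 26.2 CPM (12.5 to 36.2) at 48 hpf (log2 fold change -0.77 ± 0.22, adjusted p = 0.0167), both with overlap.

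Some genes of collagens and fin matrix rose. Of the collagen and fin matrix list, 17 of 66 tested members rose (25.8%) and 2 fell (3.03%), with a median log2 fold change of 0.17. All genes gave 5.28% and 6.31%. Without overlap 10 members rose, against 1.64% of all genes. The actinodins, proteins of the actinotrichia that stiffen the fin fold, were the leading members. *and2* had 49.4 CPM (29.7 to 85.5) at 32 hpf and 316 CPM (281 to 376) at 48 hpf (log2 fold change 2.62 ± 0.18, adjusted p = 8.17e-12), and *and3* had 33.2 CPM (18.7 to 63.2) at 32 hpf and 218 CPM (195 to 241) at 48 hpf (log2 fold change 2.66 ± 0.19, adjusted p = 2.21e-11). The highest library of 32 hpf stood far below the lowest of 48 hpf in each. The chains of type I collagen, the main collagen of bone and dermis, rose by less than the actinodins on the log2 scale, a difference that was not tested. *col1a1a* went from 692 CPM (552 to 864) to 1540.1 CPM (1106 to 1771) (log2 fold change 1.11 ± 0.11, adjusted p = 1.48e-08), and *col1a1b* had a log2 fold change of 1.02 ± 0.11. The 2 members that fell were *col28a2a* (-0.69 ± 0.13) and *col14a1a* (-0.85 ± 0.22), a fibril-associated collagen.

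Some cartilage genes rose, a few of them strongly. Of the cartilage list, 12 of 31 tested members rose (38.7%) and 1 fell (3.23%), against 5.28% and 6.31% of all genes (median log2 fold change 0.46). *col9a1a*, a chain of the cartilage collagen type IX, had 9.59 CPM (4.18 to 14.5) at 32 hpf and 49.6 CPM (35.9 to 74.6) at 48 hpf (log2 fold change 2.49 ± 0.24, adjusted p = 4.95e-09). *matn3a*, which encodes a matrilin of cartilage matrix, went from 19.6 CPM (10.6 to 21.3) to 71.1 CPM (29.6 to 112) (log2 fold change 1.92 ± 0.22, adjusted p = 1.47e-07). *col10a1a*, the collagen of hypertrophic cartilage and fish bone, had 1.29 CPM (0 to 2.29) at 32 hpf and 23.1 CPM (4.79 to 44.7) at 48 hpf (log2 fold change 4.04 ± 0.54, adjusted p = 2.53e-06). These 3 did not overlap between the stages. Only *comp*, the cartilage oligomeric matrix protein, was called lower among the 31 members, with 40.6 CPM (25.0 to 49.3) at 32 hpf and 13.1 CPM (11.5 to 22.0) at 48 hpf (log2 fold change -1.39 ± 0.21, adjusted p = 1.55e-05). With all 40 libraries in the fit, or with only the 4 libraries of each stage nearest in depth, 6 and 6 cartilage members rose, in place of 12. Of the bone and mineral list, 8 of 23 tested members rose (34.8%) and 1 fell (4.35%), against the same shares of all genes (median log2 fold change 0.30). *phex*, an endopeptidase that regulates phosphate handling, was its member that fell, with 18.6 CPM (14.5 to 23.1) at 32 hpf and 7.38 CPM (2.505 to 11.7) at 48 hpf (log2 fold change -1.34 ± 0.30, adjusted p = 0.00267), a call lost over the 8 libraries nearest in depth.

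For jaw and palate patterning, 9 of 48 tested members rose (18.75%, against 5.28% of all genes), with a median log2 fold change of 0.37. Falls numbered 0 (0 at an unadjusted p under 0.05, 0 by DESeq2), against 6.31% of all genes. *zfhx3* and *zfhx4*, large zinc finger homeobox genes that the study selected on libraries including these, had the smallest adjusted p of the list. *zfhx3* had 33.3 CPM (27.0 to 44.4) at 32 hpf and 91.4 CPM (71.9 to 122) at 48 hpf (log2 fold change 1.45 ± 0.15, adjusted p = 2.14e-08), and *zfhx4* had 47.0 CPM (36.6 to 65.3) at 32 hpf and 145 CPM (75.9 to 163) at 48 hpf (log2 fold change 1.43 ± 0.16, adjusted p = 1.05e-07). Both were without overlap. *gsc*, a homeobox gene of the jaw arch and earlier of the hatching gland lineage, went from 1.34 CPM (0 to 4.16) to 11.6 CPM (4.99 to 17.4) (log2 fold change 2.77 ± 0.55, adjusted p = 0.000733). The other genes that the study selected were not called. *sox9b*, a regulator of cartilage and neural crest, had 51.5 CPM (41.0 to 69.5) at 32 hpf and 62.9 CPM (46.9 to 80.5) at 48 hpf (log2 fold change 0.31 ± 0.15, adjusted p = 0.22), which did not pass the test. The remaining pair, *six1b*, a sine oculis homeobox gene (log2 fold change 0.33 ± 0.17, adjusted p = 0.245), and *jun*, an AP-1 subunit (log2 fold change 0.45 ± 0.16, adjusted p = 0.0591), did not pass the test either. The call of *jun* was gained with 4 of the 16 libraries left out singly (adjusted p 0.0263 to 0.0461). Over all alternative fits, by edgeR or DESeq2, its adjusted p ran from 0.0167 to 0.156. *sox9a* stood under the filter, with 29 counts in all at 32 hpf and 25 at 48 hpf.

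Neural crest genes changed in both directions. Of the neural crest list, 7 of 32 tested members rose and 3 fell (median log2 fold change 0.07). The shares were 21.9% and 9.38%, against 5.28% and 6.31% of all genes, so the share of falls was near that of all genes. *ednrab*, an endothelin receptor of migrating crest cells, had 14.9 CPM (6.21 to 23.0) at 32 hpf and 0.622 CPM (0 to 3.99) at 48 hpf (log2 fold change -3.73 ± 0.59, adjusted p = 3.48e-05). *crestin*, a marker of migrating crest, went from 83.7 CPM (51.3 to 124) to 39.4 CPM (33.9 to 61.4) (log2 fold change -1.05 ± 0.17, adjusted p = 7.3e-05). *tfap2b*, an AP-2 transcription factor, had 10.19 CPM (5.03 to 15.8) at 32 hpf and 34.5 CPM (23.8 to 43.4) at 48 hpf (log2 fold change 1.74 ± 0.23, adjusted p = 1.87e-06), and *id2a*, an inhibitor of helix-loop-helix factors, rose as well (log2 fold change 1.06 ± 0.16, adjusted p = 1.89e-05). The related *tfap2a* and *tfap2e*, which act in pigment and other crest cells, rose by 1.04 ± 0.19 and 0.99 ± 0.21 on the log2 scale. Over the 8 libraries nearest in depth 3 members of the list rose.

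Many genes of differentiating neurons rose. Of the list of neuronal cytoskeleton and RNA-binding genes, 33 of 65 tested members rose (50.8%) and 1 fell (1.54%), with a median log2 fold change of 0.77. Among all genes the shares were 5.28% and 6.31%. Without overlap were 14 of the rises, against 1.64% of all genes. *ckbb*, the brain-type creatine kinase, had 109 CPM (76.2 to 143) at 32 hpf and 469 CPM (313 to 531) at 48 hpf (log2 fold change 2.01 ± 0.14, adjusted p = 8.17e-12). *stmn1b*, a stathmin that binds tubulin, went from 118 CPM (74.3 to 139) to 351 CPM (275 to 401) (log2 fold change 1.64 ± 0.13, adjusted p = 1.59e-10). Its relative *stmn3* was the only member called lower, with 23.0 CPM (16.9 to 28.2) at 32 hpf and 9.00 CPM (3.36 to 19.0) at 48 hpf (log2 fold change -1.16 ± 0.30, adjusted p = 0.00781). Genes of transmitter release followed. For synaptic vesicle release, 18 of 63 tested members rose (28.6%) and 0 fell (1 at an unadjusted p under 0.05, 0 by DESeq2), with a median of 0.77. *slc6a1b*, a transporter that takes up GABA, had 20.1 CPM (9.76 to 27.4) at 32 hpf and 51.2 CPM (35.3 to 93.6) at 48 hpf (log2 fold change 1.598 ± 0.21, adjusted p = 2.23e-06), and *sv2a*, a synaptic vesicle glycoprotein, had 10.31 CPM (5.58 to 16.3) at 32 hpf and 33.3 CPM (25.7 to 40.7) at 48 hpf (log2 fold change 1.69 ± 0.23, adjusted p = 2.91e-06). Both were without overlap. Of the 94 members found in the table, 31 had too few counts to be tested. With all 40 libraries, 26 members of the neuronal list and 12 of the synaptic list rose. Over the 8 libraries nearest in depth, 24 and 12 did.

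Receptors and peptides of the nervous system were mostly low at both stages. Of 40 tested transmitter receptors 2 rose (5%) and 5 fell (12.5%), against 5.28% and 6.31% of all genes. The muscle acetylcholine receptor subunits *chrna1*, *chrnb1*, *chrng* and *chrne* were 4 of the falls. The count of falls was 3 without 32 hpf library 2 or 6 or without 48 hpf library 3 or 7, 3 with the replicate number as a block, 2 with all 40 libraries and 1 over the 8 libraries nearest in depth. DESeq2 called 5 receptors higher. *grin1b*, an NMDA receptor subunit, had 4.21 CPM (1.02 to 6.21) at 32 hpf and 12.1 CPM (5.60 to 16.4) at 48 hpf (log2 fold change 1.55 ± 0.38, adjusted p = 0.00596), and *glra1*, a glycine receptor subunit, rose as well (log2 fold change 1.00 ± 0.28, adjusted p = 0.0158). Of 41 tested neuropeptide and pituitary genes 5 rose (12.2%) and 0 fell (0 at an unadjusted p under 0.05, 0 by DESeq2). *otpa*, a homeobox gene of hypothalamic neurons, went from 33.0 CPM (20.9 to 48.2) to 81.8 CPM (55.4 to 132) (log2 fold change 1.33 ± 0.18, adjusted p = 2.68e-06). *adcyap1b*, which encodes a pituitary adenylate cyclase-activating peptide, had 27.1 CPM (9.16 to 42.6) at 32 hpf and 85.2 CPM (54.9 to 101) at 48 hpf (log2 fold change 1.49 ± 0.21, adjusted p = 5.9e-06). Neither overlapped between the stages. Over the 8 libraries nearest in depth 3 of these genes rose.

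Genes of neural progenitors and young neurons changed in both directions. Of the proneural and Notch list, 8 of 64 tested members rose and 16 fell (median log2 fold change -0.18). The shares were 12.5% and 25%, against 5.28% and 6.31% of all genes. *sox19a* and *sox3*, SoxB1 genes of neural progenitors, led the falls. *sox19a* had 207 CPM (168 to 251) at 32 hpf and 55.9 CPM (35.3 to 76.3) at 48 hpf (log2 fold change -1.82 ± 0.14, adjusted p = 1.03e-10), and *sox3* had 185 CPM (159.99 to 199.6) at 32 hpf and 83.9 CPM (55.7 to 114) at 48 hpf (log2 fold change -1.09 ± 0.14, adjusted p = 1.33e-06). Among the rises were genes of young neurons. *ebf3a*, an Ebf factor of young neurons, had 44.0 CPM (30.0 to 64.1) at 32 hpf and 156 CPM (144 to 180.1) at 48 hpf (log2 fold change 1.86 ± 0.14, adjusted p = 7.35e-11). *sox4b*, a SoxC gene, went from 8.80 CPM (4.92 to 14.2) to 45.5 CPM (18.0 to 86.4) (log2 fold change 2.42 ± 0.27, adjusted p = 1.2e-07). None of these 4 overlapped between the stages. The balance of the list depended on the libraries, with 10 rises and 7 falls over the 8 libraries nearest in depth and 9 falls with all 40 libraries.

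Glial genes changed in both directions. Of the glia list, 4 of 26 tested members rose and 6 fell (median log2 fold change -0.02). The shares were 15.4% and 23.1%, against 5.28% and 6.31% of all genes. *slc1a2b*, a glutamate transporter of astroglia, had 39.8 CPM (23.7 to 48.8) at 32 hpf and 122 CPM (93.0 to 183) at 48 hpf (log2 fold change 1.69 ± 0.16, adjusted p = 3.33e-09). The other glutamate transporter named, *slc1a3a*, did the opposite, with 102 CPM (88.6 to 123) at 32 hpf and 33.8 CPM (22.7 to 52.5) at 48 hpf (log2 fold change -1.53 ± 0.17, adjusted p = 6.02e-08). *fabp7a*, the brain lipid-binding protein of radial glia, went from 263 CPM (101 to 449) to 966 CPM (626 to 1055) (log2 fold change 1.79 ± 0.22, adjusted p = 8.8e-07). These 3 were without overlap. *glulb*, a glutamine synthetase, fell with overlap (log2 fold change -0.65 ± 0.13, adjusted p = 0.000823). Without 32 hpf library 5, 2 glial members rose in place of 4, and over the 8 libraries nearest in depth 3 fell in place of 6.

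Many genes of cell division fell, and DNA replication gave more calls than mitosis. Of 70 tested replication genes 44 fell (62.9%, against 6.31% of all genes), with a median log2 fold change of -0.90. Rises numbered 0 (0 at an unadjusted p under 0.05, 0 by DESeq2), against 5.28% of all genes. Without overlap 17 members fell, against 1.75% of all genes. *mcm3* and *mcm6*, subunits of the replicative helicase, had the smallest adjusted p. *mcm3* had 116 CPM (91.8 to 154) at 32 hpf and 37.5 CPM (29.2 to 58.3) at 48 hpf (log2 fold change -1.63 ± 0.16, adjusted p = 5.59e-09), and *mcm6* had 178 CPM (157 to 221) at 32 hpf and 75.0 CPM (50.8 to 94.0) at 48 hpf (log2 fold change -1.26 ± 0.14, adjusted p = 9.58e-08). Of 91 tested mitotic genes 17 fell (18.7%) and 0 rose (1 at an unadjusted p under 0.05, 1 by DESeq2), with a median of -0.40. *mki67*, the Ki-67 proliferation marker, went from 149 CPM (115 to 162) to 94.6 CPM (79.8 to 114) (log2 fold change -0.58 ± 0.12, adjusted p = 0.00144), without overlap. *aurka*, a kinase of the mitotic spindle, had 48.2 CPM (36.3 to 62.8) at 32 hpf and 23.2 CPM (10.1 to 36.9) at 48 hpf (log2 fold change -0.99 ± 0.21, adjusted p = 0.00163). Without 32 hpf library 2, 11 mitotic members fell, with all 40 libraries 10, and over the 8 libraries nearest in depth 2 did. For DNA replication, 35 members fell with all 40 libraries and 30 over the 8 libraries nearest in depth.

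Many genes of ribosome production fell. Of 99 tested nucleolar genes, 48 fell (48.5%) and 1 rose (1.01%), against 6.31% and 5.28% of all genes, with a median of -0.77. *ebna1bp2*, a factor of large subunit assembly, had 77.7 CPM (63.1 to 120.2) at 32 hpf and 34.5 CPM (21.3 to 46.2) at 48 hpf (log2 fold change -1.31 ± 0.17, adjusted p = 2.23e-06), and *dkc1*, the pseudouridine synthase dyskerin, had 116 CPM (81.4 to 171) at 32 hpf and 47.9 CPM (32.7 to 66.1) at 48 hpf (log2 fold change -1.26 ± 0.17, adjusted p = 2.56e-06). The riser was *npm1b*, a nucleophosmin, with 47.9 CPM (37.7 to 58.2) at 32 hpf and 71.7 CPM (41.0 to 101) at 48 hpf (log2 fold change 0.61 ± 0.16, adjusted p = 0.0112), with overlap. Of 82 tested ribosomal protein genes, 46 fell (56.1%) and 0 rose (0 at an unadjusted p under 0.05, 0 by DESeq2), with small changes (median -0.34). *rpl29* had 3437 CPM (2962 to 4954) at 32 hpf and 2519 CPM (2019 to 2768) at 48 hpf (log2 fold change -0.59 ± 0.11, adjusted p = 0.000429), and *rpl39* was similar (log2 fold change -0.62 ± 0.12, adjusted p = 0.000491), both without overlap. The median stayed negative with library totals (-0.29) and with DESeq2 size factors (-0.29). The count of falls was 27 without 32 hpf library 6 and 21 both without 48 hpf libraries 5 and 6 and with the replicate number as a block.

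**Figure D3:**
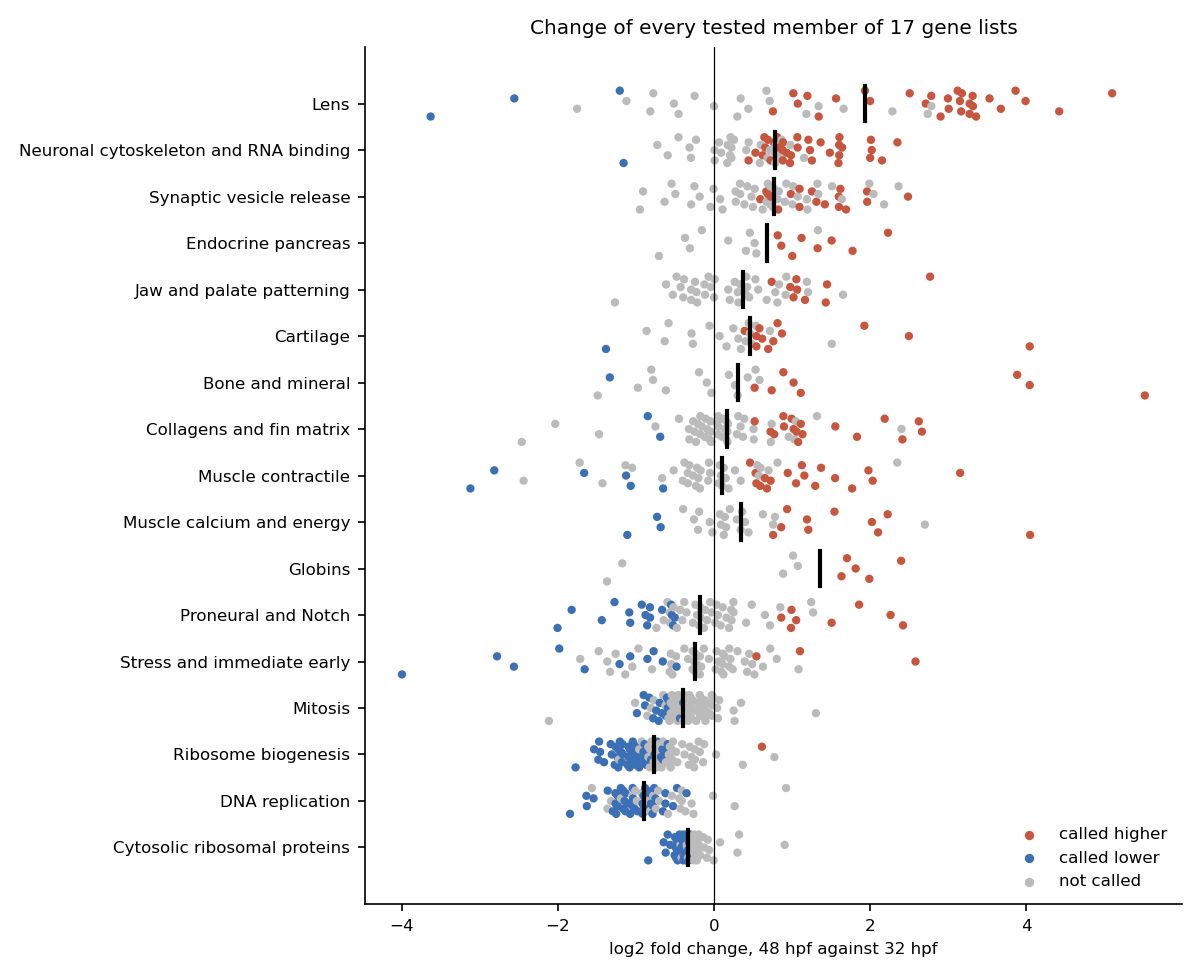
Log2 fold change from 32 to 48 hpf of every tested member of 17 gene lists, 1 point per gene (red called higher, blue called lower, gray not called at an adjusted p under 0.05), with the median of each list as a black bar; height within a row only separates points. Lens (median 1.93) spreads from the gamma crystallins on the right to crybb1 and crybb1l1 on the left, whereas the replication (median -0.90) and ribosomal protein (median -0.34) lists form compact groups left of 0.

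Some embryonic globins rose, with wide spread between libraries. Of 10 tested globin genes 5 rose (50.0%, against 5.28% of all genes), with a median log2 fold change of 1.35. Falls numbered 0 (1 at an unadjusted p under 0.05, 0 by DESeq2), against 6.31% of all genes. *hbbe1.3*, an embryonic beta globin, had 1187.9 CPM (418 to 6876) at 32 hpf and 8172 CPM (1542 to 18094) at 48 hpf (log2 fold change 1.99 ± 0.44, adjusted p = 0.0022), and *hbbe2*, another beta globin, had 22.6 CPM (10.28 to 132) at 32 hpf and 250.1 CPM (25.4 to 419.8) at 48 hpf (log2 fold change 2.39 ± 0.48, adjusted p = 0.00071). Both overlapped between the stages. The summed globin level ran from 1855 CPM in library 8 to 38731 in library 3 at 32 hpf. At 48 hpf library 2 held 6239.9 CPM, and the other 7 held 26694 to 65105. Without that library 5 members rose, with a median of 1.51. Of 31 tested erythroid and heme genes (3.23% higher, against 5.28% of all genes) only *rhag*, an ammonium transporter of red cells, rose (log2 fold change 1.27 ± 0.21, adjusted p = 7.08e-05), and 0 fell (1 at an unadjusted p under 0.05, 0 by DESeq2). Without 32 hpf library 3, 3 of them rose, as did 3 with the replicate number as a block. Globin copies share reads, so single copies are less certain than their sum.

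**Figure D4:**
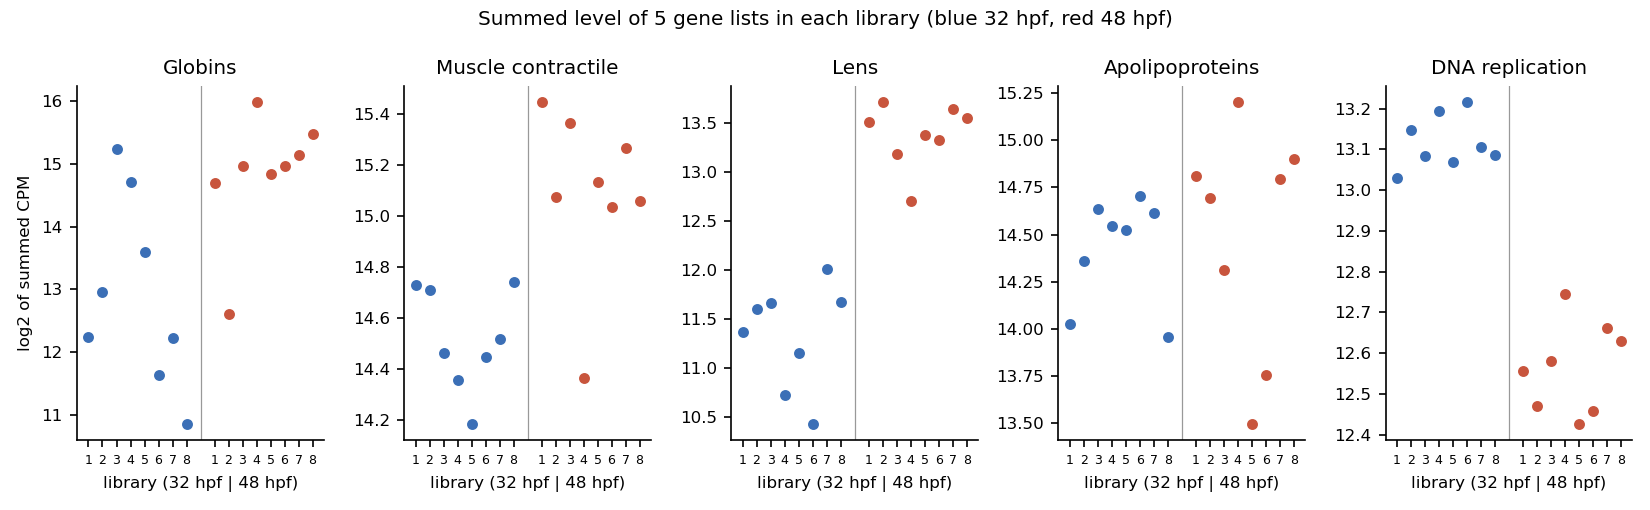
Summed level of 5 gene lists, as log2 of summed CPM, in each library (1 to 8 of 32 hpf in blue, 1 to 8 of 48 hpf in red); each panel has its own vertical axis, which does not start at 0. Globins are lowest at 48 hpf in library 2 (6239.9 CPM), contractile and lens genes in library 4, and apolipoproteins in libraries 5 and 6, whereas the replication genes of all 8 libraries of 48 hpf lie below all 8 of 32 hpf.

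Some genes of white cells and heart, and few of vessels, were called, against 5.28% higher and 6.31% lower of all genes. In the myeloid list, 3 of 37 tested members rose and 1 fell. *lyz*, the lysozyme of neutrophils and macrophages, had 69.0 CPM (24.7 to 135) at 32 hpf and 186 CPM (125 to 214) at 48 hpf (log2 fold change 1.29 ± 0.23, adjusted p = 0.000155). *ctss2.1*, a cathepsin S gene, had 173 CPM (89.99 to 311) at 32 hpf and 10.9 CPM (2.00 to 28.4) at 48 hpf (log2 fold change -4.02 ± 0.32, adjusted p = 1.39e-10), while its copy *ctss2.2* stood at 1.55 CPM (0 to 8.16) and 1.32 CPM (0 to 5.51). In the heart list, 3 of 25 tested members rose and 1 fell. *nppa*, the atrial natriuretic peptide, had 10.5 CPM (3.29 to 18.6) at 32 hpf and 28.6 CPM (15.3 to 46.7) at 48 hpf (log2 fold change 1.56 ± 0.31, adjusted p = 0.000679). *myl10*, a myosin light chain gene, was the member that fell (log2 fold change -0.53 ± 0.10, adjusted p = 0.000449), without overlap. Of 38 tested endothelial genes 1 rose and 1 fell. *plvapb*, which forms the diaphragms of fenestrated endothelium, went from 8.72 CPM (5.98 to 14.0) to 20.6 CPM (14.0 to 32.1) (log2 fold change 1.19 ± 0.26, adjusted p = 0.00212), and *stab2*, a scavenger receptor of veins, from 25.9 CPM (18.6 to 33.7) to 12.4 CPM (6.44 to 22.7) (log2 fold change -0.99 ± 0.25, adjusted p = 0.00689). Over the 8 libraries nearest in depth 1 heart gene rose, and without 48 hpf libraries 5 and 6 3 endothelial genes did. With all 40 libraries in the fit, 0 endothelial genes rose and 0 fell, and 0 heart genes fell. The calls of *plvapb*, *stab2* and *myl10* were thus lost in that fit.

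Genes of the apolipoprotein and liver lists were called in shares that moved with the libraries used. Of the apolipoprotein list, 2 of 17 tested members rose (11.8%) and 3 fell (17.6%), against 5.28% and 6.31% of all genes (median log2 fold change -0.12). *apoea*, an apolipoprotein E, had 304 CPM (163 to 404) at 32 hpf and 753 CPM (133 to 1114) at 48 hpf (log2 fold change 1.405 ± 0.27, adjusted p = 0.000436), whereas its paralog *apoeb* had 1590.5 CPM (1216 to 2132) at 32 hpf and 991 CPM (404 to 1635) at 48 hpf (log2 fold change -0.77 ± 0.20, adjusted p = 0.00842). *lpl*, lipoprotein lipase, went from 29.6 CPM (25.3 to 55.6) to 15.4 CPM (7.88 to 25.4) (log2 fold change -1.07 ± 0.23, adjusted p = 0.00141). The summed apolipoprotein level at 48 hpf was 11549 CPM in library 5 and 13809 in library 6, below the 20354 to 37728 of the other 6. Of the liver and plasma list, 3 of 48 tested members rose and 4 fell (median log2 fold change 0.14), which is near the shares of all genes (5.28% and 6.31%). *f10*, coagulation factor X, had 11.1 CPM (3.57 to 12.7) at 32 hpf and 26.1 CPM (20.4 to 45.4) at 48 hpf (log2 fold change 1.52 ± 0.26, adjusted p = 8.99e-05), and *fetub*, a fetuin, had 426 CPM (390.2 to 649.99) at 32 hpf and 190.3 CPM (138 to 364) at 48 hpf (log2 fold change -1.13 ± 0.16, adjusted p = 1.03e-05). Libraries 5 and 6 were also the lowest of their stage for this list, with 2585 and 2631 CPM. Without them 11 liver members rose and 3 fell, and 4 apolipoprotein members rose and 2 fell. Without library 5 or library 6 alone, 5 and 6 liver members rose, and 4 apolipoprotein members in each case. Over the 8 libraries nearest in depth, 7 liver members rose and 2 fell, and 4 apolipoprotein members rose and 0 fell. DESeq2 called 5 liver members higher. The rise of *apoa2* (log2 fold change 0.61 ± 0.18, adjusted p = 0.0216) was lost with 2 of the 16 libraries left out singly (adjusted p 0.0532 to 0.0542).

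Some genes of the endocrine pancreas list rose, of which the leading pair is shared with neurons. Of 18 tested endocrine genes 8 rose (44.4%, against 5.28% of all genes), with a median of 0.68. Falls numbered 0 (1 at an unadjusted p under 0.05, 0 by DESeq2), against 6.31% of all genes. *neurod1* and *isl1*, transcription factors shared by islet cells and neurons, had 25.0 CPM (9.02 to 33.0) at 32 hpf and 62.1 CPM (37.5 to 96.8) at 48 hpf (log2 fold change 1.504 ± 0.22, adjusted p = 1.12e-05) and 18.8 CPM (10.7 to 21.7) at 32 hpf and 36.9 CPM (22.0 to 46.3) at 48 hpf (log2 fold change 1.00 ± 0.22, adjusted p = 0.00179), respectively, without overlap. The hormone gene *ins* (insulin) had 19.0 CPM (8.16 to 25.1) at 32 hpf and 37.3 CPM (11.7 to 59.7) at 48 hpf (log2 fold change 1.12 ± 0.27, adjusted p = 0.00431). With all 40 libraries in the fit 5 members rose, and over the 8 libraries nearest in depth 4. Of 11 tested exocrine genes, *c6ast4* rose (log2 fold change 1.37 ± 0.44, adjusted p = 0.0424) and *cela1.6*, an elastase, fell (log2 fold change -0.98 ± 0.31, adjusted p = 0.0339), and these calls were lost with 11 of the 16 libraries left out singly (adjusted p 0.0558 to 0.0896) and 6 of the 16 libraries left out singly (adjusted p 0.0526 to 0.0944). In the intestine list, 2 of 19 rose and 2 fell (10.5% each, against 5.28% and 6.31% of all genes), and 1 rose without 48 hpf library 4. The gene *fabp2*, the intestinal fatty acid-binding protein, which the yolk syncytial layer also expresses, had 385 CPM (235 to 628) at 32 hpf and 116 CPM (54.4 to 184) at 48 hpf (log2 fold change -1.91 ± 0.23, adjusted p = 4.04e-07), without overlap.

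In the skin, keratins changed in both directions while their summed level was nearly the same. Of the keratin list, 7 of 42 tested members rose and 7 fell (16.7% each, against 5.28% and 6.31% of all genes). The median log2 fold change was -0.06. The summed keratin level was 35043 CPM (29859 to 37010.4) at 32 hpf and 35129 CPM (32091 to 37984) at 48 hpf. *krt91* had 258 CPM (197 to 397) at 32 hpf and 1086 CPM (906 to 1194) at 48 hpf (log2 fold change 1.96 ± 0.14, adjusted p = 8.51e-12), and *krt15* had 10.1 CPM (3.17 to 18.8) at 32 hpf and 45.6 CPM (36.4 to 80.4) at 48 hpf (log2 fold change 2.25 ± 0.27, adjusted p = 3.74e-07). *krt92* had 254 CPM (151 to 399) at 32 hpf and 80.2 CPM (55.6 to 89.8) at 48 hpf (log2 fold change -1.79 ± 0.17, adjusted p = 6.59e-09), and *anxa1c*, an annexin of the outer epidermal layer, fell as well (log2 fold change -1.11 ± 0.13, adjusted p = 5.41e-07). These 4 did not overlap between the stages, and 4 keratins rose over the 8 libraries nearest in depth. Some genes of the hatching gland, which releases the enzymes that digest the egg envelope, fell. Among them, *ctslb*, a cathepsin L, and *he1.2*, a hatching enzyme, had 6243 CPM (4984 to 8209.8) at 32 hpf and 2112 CPM (1589 to 3118) at 48 hpf (log2 fold change -1.598 ± 0.14, adjusted p = 4.76e-10) and 1149 CPM (1028 to 2285) at 32 hpf and 299 CPM (213 to 536) at 48 hpf (log2 fold change -2.13 ± 0.19, adjusted p = 8.28e-10), without overlap. The list had 4 falls (21.1%) and 1 rise (5.26%) among 19 tested members, against 6.31% and 5.28% of all genes, and the rise was that of *gsc*. Its summed level was 11436 CPM (9766 to 14694) at 32 hpf and 5053 CPM (4224 to 7182) at 48 hpf. Of 25 tested ionocyte genes 1 rose (4%) and 2 fell (8%), near the 5.28% and 6.31% of all genes. *rhbg*, an ammonia channel, went from 20.3 CPM (16.2 to 28.2) to 50.5 CPM (30.8 to 61.5) (log2 fold change 1.16 ± 0.19, adjusted p = 5.29e-05), and *atp1a1a.4*, a sodium pump subunit, from 44.2 CPM (30.1 to 70.4) to 15.5 CPM (6.59 to 24.9) (log2 fold change -1.66 ± 0.25, adjusted p = 1.41e-05).

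Pigment cell genes changed in both directions, against 5.28% higher and 6.31% lower of all genes. Of the xanthophore and iridophore list, 4 of 31 tested members rose and 2 fell (median log2 fold change -0.21). *gpnmb*, a glycoprotein of pigment organelles, had 8.17 CPM (5.61 to 12.4) at 32 hpf and 33.3 CPM (20.5 to 46.8) at 48 hpf (log2 fold change 2.03 ± 0.23, adjusted p = 1.3e-07). *apoda.1*, an apolipoprotein D expressed in iridophores, had 7.43 CPM (0 to 11.5) at 32 hpf and 36.3 CPM (23.8 to 51.8) at 48 hpf (log2 fold change 2.43 ± 0.37, adjusted p = 2.43e-05). *pfas*, an enzyme of purine synthesis, had 62.3 CPM (52.1 to 91.2) at 32 hpf and 31.8 CPM (28.3 to 38.5) at 48 hpf (log2 fold change -0.98 ± 0.15, adjusted p = 3.11e-05). *gch2*, which makes the pteridine precursor of xanthophores, fell by 0.43 ± 0.13 on the log2 scale (adjusted p = 0.0268), a call lost with 5 of the 16 libraries left out singly (adjusted p 0.0551 to 0.0793). The count of falls was 4 without 32 hpf library 1 or 8 or without 48 hpf library 1 or 8. Of 20 tested melanophore genes 3 rose (15%), *tfap2a* and *tfap2e* with the smallest adjusted p, and 1 fell (5%), *tspan36* (log2 fold change -0.65 ± 0.14, adjusted p = 0.00234). Over the 8 libraries nearest in depth 1 melanophore gene rose.

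Genes of the ear, kidney and trunk lists changed in both directions, against 5.28% higher and 6.31% lower of all genes. *oc90*, the otoconin of the otolith matrix, had 20.7 CPM (11.3 to 30.6) at 32 hpf and 3.15 CPM (0 to 4.85) at 48 hpf (log2 fold change -2.97 ± 0.45, adjusted p = 2.17e-05), and *atoh1a*, the proneural gene of hair cells and hindbrain, went from 19.7 CPM (15.4 to 23.9) to 8.33 CPM (0.696 to 20.9) (log2 fold change -1.28 ± 0.37, adjusted p = 0.0207). They were the 2 falls of the inner ear list, in which 4 of 28 members rose. *calm1a*, a calmodulin gene of wide expression, led these (log2 fold change 1.33 ± 0.21, adjusted p = 4.56e-05), and DESeq2 called 7 members higher. Of the pronephros list, 2 of 33 tested members rose and 5 fell (median log2 fold change -0.08). *cldnh*, a claudin of the kidney tubule, had 54.1 CPM (45.9 to 72.6) at 32 hpf and 30.0 CPM (26.3 to 43.1) at 48 hpf (log2 fold change -0.79 ± 0.16, adjusted p = 0.000737), and *lhx1a*, a LIM homeobox gene of kidney and neurons, had 9.01 CPM (3.51 to 11.8) at 32 hpf and 30.7 CPM (10.4 to 36.1) at 48 hpf (log2 fold change 1.61 ± 0.30, adjusted p = 0.000293). Of the tailbud and somite clock list, 5 of 39 tested members rose and 4 fell (median log2 fold change -0.24). *lfng*, a modulator of Notch, had 185 CPM (141 to 221) at 32 hpf and 102 CPM (93.2 to 129.7) at 48 hpf (log2 fold change -0.79 ± 0.12, adjusted p = 2.68e-05). *uncx*, a homeobox gene of the posterior somite, went the other way, from 11.8 CPM (3.34 to 17.1) to 30.1 CPM (22.7 to 42.7) (log2 fold change 1.36 ± 0.26, adjusted p = 0.000409). *ripply3* had 6.03 CPM (2.71 to 10.5) at 32 hpf and 0.25 CPM (0 to 1.32) at 48 hpf (log2 fold change -3.85 ± 0.76, adjusted p = 0.000606). Falls in this list numbered 2 with all 40 libraries and 1 over the 8 libraries nearest in depth. Of 40 tested Hox genes *hoxb6b* rose (log2 fold change 1.05 ± 0.32, adjusted p = 0.0263) and *hoxb1b* fell (log2 fold change -0.92 ± 0.29, adjusted p = 0.037), and these calls were lost with 5 of the 16 libraries left out singly (adjusted p 0.0519 to 0.0687) and 9 of the 16 libraries left out singly (adjusted p 0.0515 to 0.0694), while DESeq2 called 3 Hox genes higher.

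Several heat shock genes fell. The largest fall of all eligible genes was that of *hspb9*, a small heat shock protein, with 112 CPM (20.5 to 171) at 32 hpf and 0.839 CPM (0 to 6.60) at 48 hpf (log2 fold change -5.27 ± 0.49, adjusted p = 2.93e-09). *hsp90aa1.1*, the chaperone that folds muscle myosin, had 189 CPM (163 to 437) at 32 hpf and 34.0 CPM (19.5 to 50.9) at 48 hpf (log2 fold change -2.78 ± 0.23, adjusted p = 1.96e-10). *hspb1*, the Hsp27 homolog, went from 160.05 CPM (121 to 237) to 46.6 CPM (20.6 to 68.4) (log2 fold change -1.98 ± 0.21, adjusted p = 4.69e-08). Of the stress and immediate early list, 3 of 63 tested members rose and 11 fell (median log2 fold change -0.24). The shares were 4.76% and 17.5%, against 5.28% and 6.31% of all genes, so rises were no more frequent than among all genes. *hsp90b1*, the chaperone of the endoplasmic reticulum, was among the rises (log2 fold change 1.10 ± 0.19, adjusted p = 0.000102), as was *egln3*, a prolyl hydroxylase that responds to oxygen, with 1.52 CPM (0 to 4.94) at 32 hpf and 12.5 CPM (5.32 to 24.1) at 48 hpf (log2 fold change 2.58 ± 0.50, adjusted p = 0.000491). These genes did not overlap between the stages. Other large falls without overlap were those of *rgs2*, a regulator of G protein signaling (log2 fold change -2.82 ± 0.51, adjusted p = 0.000236), and *greb1*, known in mammals as an estrogen-responsive gene (log2 fold change -2.65 ± 0.33, adjusted p = 6.73e-07). Opposite to them, *tcnbb*, a transcobalamin that binds cobalamin, had 37.2 CPM (14.1 to 51.7) at 32 hpf and 445 CPM (209 to 562) at 48 hpf (log2 fold change 3.56 ± 0.23, adjusted p = 2.2e-12).

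Many genes of the mitochondrial genome rose. The share of counts from the mitochondrial genome was 2.36% to 3.47% at 32 hpf and 3.65% to 4.59% at 48 hpf, without overlap (p = 0.000155 in a two-sided exact permutation test, the lowest value that 8 against 8 can give). Of its 13 protein genes 9 rose and 0 fell (0 at an unadjusted p under 0.05, 0 by DESeq2). The count of rises was 6 with the replicate number as a block and 6 over the 8 libraries nearest in depth. Leaving out each library in turn gave 6 to 10. *mt-atp6*, a subunit of ATP synthase, had 3699 CPM (3001 to 4743) at 32 hpf and 5869.8 CPM (4502 to 7047) at 48 hpf (log2 fold change 0.66 ± 0.11, adjusted p = 9.81e-05), and *mt-nd3*, a subunit of complex I, had 384 CPM (260.03 to 827) at 32 hpf and 1756 CPM (359 to 2795) at 48 hpf (log2 fold change 1.78 ± 0.33, adjusted p = 0.000332). Both overlapped between the stages. For *mt-nd3*, 48 hpf libraries 2, 5 and 6 (487, 359 and 578 CPM) lay within the range of 32 hpf. Of 87 tested nuclear genes of oxidative phosphorylation 10 rose (11.5%) and 0 fell (0 at an unadjusted p under 0.05, 0 by DESeq2), with a median of 0.13. The count was 6 without 32 hpf library 1 or without 48 hpf library 1 or 8, and 18 with DESeq2. In 48 hpf library 2 the list summed to 18987 CPM, below the 21612 to 23751 of the other 7, and without it 11 rose. *atp5mc1*, a subunit of the ATP synthase ring, had 378 CPM (322 to 495) at 32 hpf and 601 CPM (419.6 to 738) at 48 hpf (log2 fold change 0.61 ± 0.12, adjusted p = 0.000629). Of 40 tested proteasome genes 0 rose (1 at an unadjusted p under 0.05, 1 by DESeq2) and 0 fell (2 at an unadjusted p under 0.05, 0 by DESeq2). Of 38 tested splicing factors 0 rose (3 at an unadjusted p under 0.05, 1 by DESeq2) and 4 fell (10.5%). Among all genes, 5.28% rose and 6.31% fell, so few calls would be looked for in lists of this size. The clearest fall was that of *srsf5a*, an SR protein, with 211 CPM (156 to 242) at 32 hpf and 82.9 CPM (57.9 to 126) at 48 hpf (log2 fold change -1.29 ± 0.15, adjusted p = 2.28e-07). The count of splicing factors that fell was 2 without 32 hpf library 7 or 8 and 1 without 48 hpf library 2. It was 2 with library totals, DESeq2 size factors or all 40 libraries, and 1 with the block or over the 8 libraries nearest in depth.

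The clock list was of interest because 24, 48 and 72 hpf lie whole days apart, whereas 32 hpf lies 8 h after 24 hpf. The hour of fertilization or collection was not given, so the hour of the day of each library is not known. Of 40 tested clock genes 4 rose (10%) and 2 fell (5%), against 5.28% and 6.31% of all genes. All 24 named members overlapped between the stages, as most genes did. Only 1.64% of all genes lay without overlap above and 1.75% below. *csnk1da*, a casein kinase 1 delta, had 54.6 CPM (35.9 to 76.9) at 32 hpf and 104 CPM (74.1 to 131) at 48 hpf (log2 fold change 0.83 ± 0.16, adjusted p = 0.00042). *nfil3-5*, a repressor of the D-box, went from 28.6 CPM (16.6 to 35.7) to 47.3 CPM (31.2 to 77.6) (log2 fold change 0.86 ± 0.19, adjusted p = 0.00267), and *ciarta*, a repressor of the CLOCK complex, from 9.55 CPM (2.67 to 15.18) to 23.8 CPM (7.65 to 34.3) (log2 fold change 1.33 ± 0.32, adjusted p = 0.00518). *usp2a*, a ubiquitin protease, had 17.1 CPM (4.34 to 30.2) at 32 hpf and 5.87 CPM (0.751 to 11.2) at 48 hpf (log2 fold change -1.54 ± 0.43, adjusted p = 0.0154). *cry4*, a cryptochrome, rose (log2 fold change 1.02 ± 0.32, adjusted p = 0.0363) and *timeless*, which also acts at replication forks, fell (log2 fold change -0.75 ± 0.25, adjusted p = 0.0452), and these calls were lost with 9 of the 16 libraries left out singly (adjusted p 0.0552 to 0.0764) and 13 of the 16 libraries left out singly (adjusted p 0.0506 to 0.129). The period genes *per1b* and *per3* had log2 fold changes of 1.86 ± 0.66 (adjusted p = 0.0659) and 0.34 ± 0.22 (adjusted p = 0.403), and the negative limb gene *bhlhe40* of -0.66 ± 0.24 (adjusted p = 0.0759). *per1b* was called with 3 of the 16 libraries left out singly (adjusted p 0.0242 to 0.0449) and *bhlhe40* with 2 of the 16 libraries left out singly (adjusted p 0.0484 to 0.0498). Over all alternative fits, by edgeR or DESeq2, adjusted p ran from 0.0191 to 0.294 for *per1b* and from 0.0484 to 0.282 for *bhlhe40*. Of the other 15 members under the rule, *cry3a*, *cry3b*, *cry5*, *clockb*, *arntl1a*, *arntl1b*, *nr1d2b*, *rorab*, *rorcb*, *tefa*, *cipcb*, *nfil3*, *csnk1db*, *csnk1e* and *nocta*, none was called, with log2 fold changes from -0.66 (*cry3b*) to 0.66 (*clockb*). At 24, 32, 48 and 72 hpf, *ciarta* averaged 15.7, 9.28, 23.9 and 25.9 CPM and *per1b* 4.31, 2.57, 9.88 and 14.8 CPM. Both averages were lowest at 32 hpf. Under other filters or with library totals, neither gene had a called difference in hourly change between 24 to 32 and 32 to 48 hpf. In these edgeR tests adjusted p was 0.0754 to 0.121 for *ciarta* and 0.278 to 0.481 for *per1b*, so these alternative fits did not show a dip at 32 hpf. Averages of most other named clock genes are not given here. *usp2a* averaged 15.4, 17.6, 6.06 and 14.8 CPM, lowest at 48 hpf.

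The pace of change was compared with the steps before (24 to 32 hpf, 8 h) and after (48 to 72 hpf, 24 h) in the 32 libraries of these 4 stages. The log2 change per hour over the 16 h from 32 to 48 hpf was higher than before for 72 of 17915 genes (0.402%) and lower for 159 (0.888%). Against the step after, it was higher for 335 (1.87%) and lower for 226 (1.26%). The change before was divided by 8 h and the change after by 24 h, so the tests differ in precision. For *crygm2d18* the SE was 0.06 log2 per hour against the step before and 0.03 against the step after. Fewer calls against the step before therefore do not show a more similar pace. The steps share the libraries of 32 or 48 hpf, and a difference in pace uses the same libraries as the change described above. *hspb9* averaged 46.5, 105, 2.56 and 6.86 CPM over the 4 stages, and its hourly change was below that of the step before (-0.47 ± 0.07 log2 per hour, adjusted p = 1.29e-05). *sox19a* averaged 179.97, 208, 59.7 and 38.0 CPM, without a called change from 24 to 32 hpf, and its hourly change was lower than before (-0.14 ± 0.02 log2 per hour, adjusted p = 0.000251) and after (-0.09 ± 0.01 log2 per hour, adjusted p = 2.54e-05). *mcm6* averaged 146, 183, 77.6 and 52.5 CPM, with an hourly change below that before (-0.12 ± 0.02 log2 per hour, adjusted p = 0.00448). In the lens, *crygm2d18* averaged 2.05, 39.7, 392 and 192 CPM, and its hourly rise was smaller than before (-0.33 ± 0.06 log2 per hour, adjusted p = 0.000321) and larger than after (0.25 ± 0.03 log2 per hour, adjusted p = 8.59e-10). *crygm2d16* did not pass the test against the step before (-0.01 ± 0.06 log2 per hour, adjusted p = 0.985) and was faster than after (0.30 ± 0.03 log2 per hour, adjusted p = 8.38e-10).

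Some genes that rose were, on average, highest at 48 hpf of the 4 stages, and others were higher at 72 hpf. *matn3a* averaged 6.35, 18.0, 69.3 and 6.399 CPM, *lyz* 35.4, 73.2, 182 and 49.6 CPM and *zfhx4* 40.8, 49.1, 135 and 121 CPM. Each average fell after 48 hpf. The signed change per hour was higher from 32 to 48 hpf than afterward, which does not compare the size of rise and fall. In the edgeR test the difference in log2 per hour was 0.26 ± 0.03 for *matn3a* (adjusted p = 7.58e-09). It was 0.16 ± 0.02 for *lyz* (adjusted p = 9.76e-07) and 0.10 ± 0.02 for *zfhx4* (adjusted p = 1.93e-05). *col9a1a* averaged 6.02, 9.10, 52.5 and 174 CPM and *slc6a1b* 6.51, 19.4, 59.8 and 166 CPM, and their pace afterward did not pass the test of a difference (*col9a1a* 0.09 ± 0.03 log2 per hour, adjusted p = 0.0556; *slc6a1b* 0.04 ± 0.02 log2 per hour, adjusted p = 0.476). *ctslb* of the hatching gland averaged 6946, 6575, 2207 and 102 CPM, and its hourly fall from 32 to 48 hpf was smaller than from 48 to 72 hpf (difference 0.09 ± 0.01 log2 per hour, adjusted p = 5.62e-05).

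**Figure D5:**
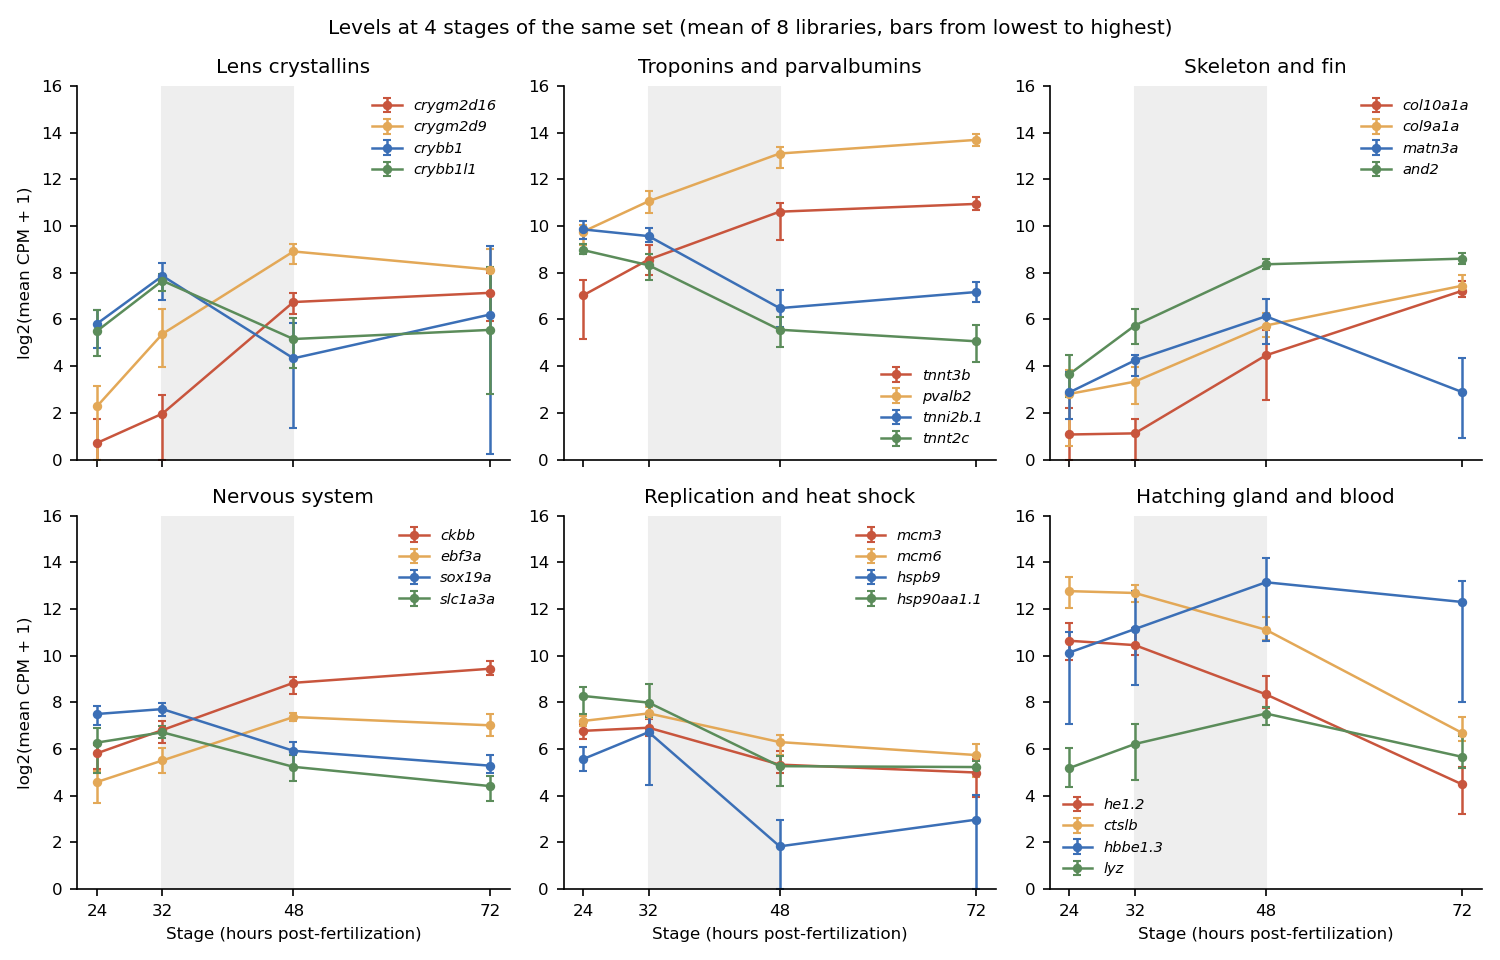
Level of 24 named genes at 24, 32, 48 and 72 hpf, as log2 of the mean CPM of 8 libraries plus 1, with bars from the lowest to the highest library and the interval from 32 to 48 hpf shaded. Gamma crystallins, fast muscle, skeletal and neuronal genes climb across the shaded interval, and tnni2b.1, sox19a, mcm3 and hspb9 drop across it; he1.2 and ctslb fall further by 72 hpf.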

How the data were processed

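The authors trimmed reads with fastp 0.21.0, mapped them to GRCz11 cDNA with BWA 0.7.17-r1188 and deposited estimated counts per gene from Salmon in 121 columns. Salmon divides reads shared by near-identical copies among them, and the library type used took no account of strand, so overlapping genes cannot be told apart. No molecular identifiers are described, so a count is a read and not a molecule. Only the 40 columns of the DrRyu set were read, and 81 were not used. The deposited sample table was not used.

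A gene was kept (16034 of 24801) if 8 or more of the 16 libraries held a count of 1 or more, and the values used were whole. Stages were compared with the quasi-likelihood test of edgeR 4.0.16 (limma 3.58.1, R 4.3.3) after TMM scaling, and p-values were adjusted by Benjamini-Hochberg over the genes kept. Hourly changes were compared as contrasts in the 32 libraries of 24, 32, 48 and 72 hpf. Totals were compared by exact permutation (Python 3.11.15, scipy 1.17.1), and figures were drawn with matplotlib 3.10.9. The script was tested on simulated data. Alternatives were DESeq2 1.42.0, other filters, other scalings, the replicate number as a block, all 40 libraries, and each library left out.

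The comparison and the gene lists were chosen with earlier results of these data known. Named were the 10 largest rises and 10 largest falls without overlap at a mean of at least 10 CPM, the 2 members of each list with the smallest adjusted p in each direction, *sox9a*, *sox9b*, *zfhx3*, *zfhx4*, *jun* and *six1b*, and clock genes with a mean of at least 5 CPM. Some members of the lists were left out, and *chrne*, *chrng*, *crybb1l2*, *ctss2.2*, *desma*, *gngt2a*, *ins*, *mipa*, *myhz1.3*, *rho*, *sagb*, *smyhc1* and *tnni2b.2* were named after their values were seen.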

Additional observations from a re-analysis of the deposited data

Results flagged for a closer look

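In 29 of 434 groups of 8 libraries examined (the named genes, list sums and library measures of each stage), the highest or lowest library lay far from the other 7. Chance alone flags about 1 in 20 groups. The values below are log2(CPM + 1) for genes and log2 of the summed CPM for lists.

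At 48 hpf, 9 of these values were in library 2. They were *hbbe1.3* (10.59), *fabp7a* (9.293), *hsp90b1* (4.765), *atp5mc1* (8.716) and *hnrnpa0b* (8.391), and the sums of the globins (12.61), oxidative phosphorylation (14.21), proteasome (11.72) and splicing factors (12.19). Library 4 held 8, namely *tnni2a.4* (10.91), *tnnt3b* (9.374) and *cry3a* (4.675), the sums of contractile genes (14.37), muscle calcium and energy genes (13.83), transmitter receptors (7.623) and Hox genes (8.465), and the share of the 10 highest genes (12.35%). The other values of 48 hpf were *mcm3* in library 5 (5.889), and *sox19a* (5.18) and *bhlhe40* (3.034) in library 7.

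At 32 hpf, 9 values of single genes stood apart. These were *otx5* (2.275), *fetub* (9.346) and *uncx* (2.118) in library 5, *adcyap1b* (3.346) and *arntl1a* (2.066) in library 1, *f10* (2.193) and *rorcb* (2.081) in library 4, *c6ast4* (0.8967) in library 8 and *apoda.1* (0) in library 6.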

How the results depend on the processing

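At an adjusted p under 0.05, genes higher at 48 hpf (846) and genes lower at 48 hpf (1011) numbered 1229 and 1041 with DESeq2, 952 and 923 with the filter of filterByExpr, 999 and 1072 with no filter, 885 and 879 with library totals alone, 970 and 841 with DESeq2 size factors and 626 and 736 with all 40 libraries. Leaving out each library in turn gave 728 to 878 higher and 767 to 984 lower. Alternatives chosen after seeing the data were the 4 libraries of each stage nearest in depth (571 higher, 538 lower) and the fit without 48 hpf libraries 5 and 6 (894 and 929). The first has fewer libraries, and no call of the 16 libraries took the opposite sign in any of these fits. Of 1857 calls, 1807 were kept with DESeq2, 1324 with all 40 libraries and 963 with the libraries nearest in depth, where 1852 of them were tested. Of 168 named genes, 7 took the other sign under some alternative (*arntl1a*, *arntl1b*, *cipcb*, *cry5*, *csnk1e*, *nocta* and *rorcb*), and 0 of these were called in the fit of 16 libraries. Over the libraries nearest in depth 29 lost their call (*c6ast4*, *cela1.6*, *isl1*, *agt*, *serpina1l*, *lpl*, *apoeb*, *cdx1b*, *srl*, *mef2ca*, *pax3a*, *klf2a*, *atp1a1a.1*, *tfap2e*, *gch2*, *phex*, *col14a1a*, *mki67*, *stmn3*, *glra1*, *chrnb1*, *chrna1*, *glulb*, *lfng*, *usp2a*, *timeless*, *hnrnpa0b*, *hoxb1b* and *cry4*), and with all 40 libraries 21 did (*c6ast4*, *cela1.6*, *cdx1b*, *lect2l*, *pygma*, *srl*, *mef2ca*, *pax3a*, *myl10*, *plvapb*, *stab2*, *tfap2e*, *gch2*, *stmn3*, *glra1*, *chrna1*, *atoh1a*, *evx1*, *timeless*, *hnrnpa0b* and *hoxb6b*), the causes of which were not tested. With the replicate number as a block, 723 genes were higher and 938 lower, and 9 named genes lost their call (*c6ast4*, *cela1.6*, *apoa2*, *cdx1b*, *mef2ca*, *pax3a*, *timeless*, *hnrnpa0b* and *cry4*). Libraries with the same number did not deviate together (r = -0.04 to 0.06 across genes). No pairing by number was thus seen, but these values cannot exclude that equal numbers shared a clutch or preparation. The 48 hpf libraries held fewer counts, which limits low genes such as opsins and receptors. *sox9a* was near 0 at both stages, with a mean of 0.471 CPM at 32 hpf and 0.585 CPM at 48 hpf.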

Other observations

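Several genes moved in opposite directions before and after 32 hpf. They were chosen after their values were seen, both steps share the 32 hpf libraries, and the log2 changes come from the edgeR fit of 4 stages. *crybb1l1* had 2.19 ± 0.52 from 24 to 32 hpf (adjusted p = 0.00775) and -2.53 ± 0.53 from 32 to 48 hpf, and its hourly change differed between the steps (-0.43 ± 0.08 log2 per hour, adjusted p = 0.00139). For *lfng* the changes were 0.54 ± 0.13 from 24 to 32 hpf (adjusted p = 0.00893) and -0.77 ± 0.13 from 32 to 48 hpf (-0.11 ± 0.02 log2 per hour, adjusted p = 0.00101), and for *srsf5a* they were 0.69 ± 0.16 from 24 to 32 hpf (adjusted p = 0.00396) and -1.27 ± 0.16 from 32 to 48 hpf (-0.17 ± 0.03 log2 per hour, adjusted p = 6.51e-05). *f10* did the reverse, with -1.31 ± 0.28 from 24 to 32 hpf (adjusted p = 0.00237) and 1.55 ± 0.28 from 32 to 48 hpf (0.26 ± 0.05 log2 per hour, adjusted p = 0.00118). *krt92*, in contrast, fell in both steps, and averaged 762, 259, 76.0 and 171 CPM at 24, 32, 48 and 72 hpf.

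The interval also stood at different points of longer courses. In medians of 8 libraries at 24, 32, 48 and 72 hpf, the hatching gland list summed to 10871, 11451, 5145 and 1292 CPM and the DNA replication list to 8405, 8859, 6229 and 4871 CPM. The lens list summed to 605, 2890.2, 11353 and 4720.4 CPM, and the photoreceptor list to 383, 369, 512 and 4656 CPM. These sums are descriptions, and no test was run on them.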
